A study of Mus musculus with 4 samples.

Results

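Introns of H3.3cKO macrophages held 1263 accessible regions that were called in both H3.3cKO libraries and in neither WT library. They were 3.80% of the 33198 autosomal intronic regions found in the 4 libraries. The opposite set, with a peak in each WT library but in no cKO library, is called lost here and numbered 2947 (8.88%). The gained regions were selected on these calls, so the calls and the peak areas behind them are given as a description with no test. Merging the 4 peak lists wherever peaks shared 1 bp or more gave 71243 regions, 69349 of them on the 19 autosomes. A region was intronic where its centre lay in the body of a gene of the GENCODE M21 annotation (mouse build mm10), but in no exon and no promoter. Promoters were windows around each transcription start site (TSS), with 1 kb before it and 100 bp after it. Of 2606 autosomal regions gained in cKO, 48.5% were intronic, and 1043 were intergenic. The intronic share was similar over all autosomal regions, at 33198 of 69349.

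ATAC-seq was performed on BMDMs, macrophages differentiated from bone marrow cells of mice in L929-conditioned medium. The labels give 6 to 8 days of culture, and the study's text gives day 7 for this assay. The study used mice of 8 to 10 weeks and of both sexes, and the sex behind each library is not given in the sources used here. The WT mice carried both H3.3 genes as floxed alleles (H3f3a fl/fl:H3f3b fl/fl) without Cre. The H3.3cKO mice had the same floxed alleles and Cre from the LysM (Lyz2) locus, LysM cre/cre, which is expressed in myeloid cells. Each genotype had 2 libraries, called biological replicates in the labels. The study notes that H3f3b was deleted fully in some cKO samples and in part in others, and which applies to these libraries is not given. Any pairing of the cultures was not given in the sources used here. Only the cKO mice carried Cre, so effects of Cre and of H3.3 loss cannot be told apart. In such bulk libraries, a region open in more cells and one more accessible in each cell cannot be told apart either.

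H3.3 is a variant of histone H3 that cells deposit outside of DNA replication, above all in transcribed genes and at regulatory elements. ATAC-seq marks DNA that the Tn5 transposase can reach. Many enhancers lie in introns, where they are bound by lineage factors such as PU.1 and C/EBP in macrophages and by signal-dependent factors such as AP-1, a dimer of Fos, Jun and related bZIP proteins. An accessible intron can also mark a transcribed gene body, and a peak alone does not tell these apart.

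Of 12 motifs searched, AP-1, with the letters TGACTCA or TGAGTCA, had the largest difference in share between gained and lost regions. Of the high-ranked gained regions, 4 that held it within 100 bp of the summit are shown first, read from the RefSeq assembly of mm10 on the plus strand with 35 bases on both sides, and capitals mark the motif.
Hhat intron 3 of 11, chr1:192747816-192747892: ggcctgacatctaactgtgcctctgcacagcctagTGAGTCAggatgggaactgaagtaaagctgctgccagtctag
Cngb3 intron 3 of 17, chr4:19311227-19311303: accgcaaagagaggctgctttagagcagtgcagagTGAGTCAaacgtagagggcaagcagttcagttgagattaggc
Rasgef1b intron 6 of 16, chr5:99242561-99242637: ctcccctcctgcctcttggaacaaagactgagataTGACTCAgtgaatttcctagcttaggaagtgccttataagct
Rab39 intron 1 of 1, chr9:53696075-53696151: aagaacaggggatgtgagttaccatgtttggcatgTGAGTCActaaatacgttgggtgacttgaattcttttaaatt
The motifs lay 34, 22, 20 and 41 bp from the summits of these regions. The regions ranked 14, 40, 43 and 48 among the gained regions. The peak area of the Hhat region, a measure explained with the ranks, was 1162 in cKO replicate 1 and 2086 in cKO replicate 2. Hhat encodes the acyltransferase that palmitoylates Hedgehog proteins, Cngb3 a channel subunit of cone photoreceptors and Rab39 a small GTPase of membrane traffic.

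For the other motifs whose share separated gained from lost regions, and for the interferon-stimulated response element (ISRE), a high-ranked gained region that held each is given in the same way. ISRE is the site bound by interferon-activated transcription factors, and its second line shows the only Ifi44 region that held it.
RUNX, Pde4d intron 2 of 16, chr13:108986734-108986810: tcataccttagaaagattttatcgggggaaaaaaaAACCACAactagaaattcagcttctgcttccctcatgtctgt
CTCF, Hspa8, chr9:40806521-40806602: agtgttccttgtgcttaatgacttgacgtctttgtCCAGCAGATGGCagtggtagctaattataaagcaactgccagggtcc
CRE, Adck1 intron 4 of 10, chr12:88408341-88408418: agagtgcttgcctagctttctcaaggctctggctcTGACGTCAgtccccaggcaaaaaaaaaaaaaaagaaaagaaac
ARE, Hhat intron 3 of 11, chr1:192747875-192747953: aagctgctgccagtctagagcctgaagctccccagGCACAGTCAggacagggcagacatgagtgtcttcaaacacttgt
PU.1, AC165291.1 intron 1 of 1, chr17:48558178-48558255: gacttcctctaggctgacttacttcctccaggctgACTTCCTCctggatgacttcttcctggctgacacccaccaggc
NF-kB, Cacng4 intron 1 of 3, chr11:107782756-107782835: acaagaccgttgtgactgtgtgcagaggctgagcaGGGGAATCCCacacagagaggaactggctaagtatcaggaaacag
GAS, Fancc intron 13 of 13, chr13:63305995-63306073: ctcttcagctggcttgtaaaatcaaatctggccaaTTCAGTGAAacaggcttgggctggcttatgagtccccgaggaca
ISRE, Osbpl8 intron 1 of 23, chr10:111171267-111171346: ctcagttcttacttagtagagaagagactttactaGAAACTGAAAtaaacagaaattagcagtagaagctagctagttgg
ISRE, Ifi44 intron 2 of 7, chr3:151748624-151748703: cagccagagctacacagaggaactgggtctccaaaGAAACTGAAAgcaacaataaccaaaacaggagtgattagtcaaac
The AC165291.1 window held 8 PU.1 matches, so that line is a tandem repeat and not a single site. The letters searched were AACCACA for RUNX, TGACGTCA for CRE, TGACNNNGC for the antioxidant response element (ARE), GAGGAAGT for PU.1 and TTCNNNGAA for GAS, on either strand. N stands for any base. ISRE, CTCF and NF-kB were searched by their consensus. The others were C/EBP (TTGCNNAA), the E-box TCACGTG and the GC-box GGGCGG. ARE matches can overlap AP-1 or CRE matches, since all of them can begin with TGAC. Over all 69349 autosomal regions, the share with a match was 8.37% for RUNX, 4.16% for CTCF, 0.893% for CRE, 11.6% for ARE, 11.02% for PU.1 and 4.89% for NF-kB. It was 6.10% for GAS, 3.88% for ISRE, 12.3% for C/EBP, 2.36% for the E-box and 14.9% for the GC-box. A match is a description of the letters and not a measured binding site.

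To describe how strong the gained regions were, each peak was ranked by its area, the summed significance under the peak as the authors' caller gave it, as a percentile of its own list. The list's weakest peak is at 0 and its strongest at 100. The median percentile of the gained regions was 13.9 in cKO replicate 1, with quartiles of 6.04 and 24.6. It was 24.7 in cKO replicate 2, with quartiles of 14.3 and 37.3. The areas had medians of 272 and 348, where the lowest area that the authors' caller reported was about 200 in each list. Lost regions ranked alike in the WT lists, with medians of 14.8 and 25.8. Intronic regions called in all 4 libraries had medians of 50.1 and 57.5 in the cKO lists. Most gained regions were thus weak peaks of the cKO lists, and 623 of them (49.3%) were under percentile 25 in both. In contrast, 58 (4.59%) were above percentile 50 in both, against 65 lost regions (2.21%) in the WT lists. The percentiles of the cKO replicates had a Pearson correlation of 0.80 and a Spearman correlation of 0.689 across the 1263 regions, which share both libraries. In 1049 regions (83.1%) the percentile was higher in replicate 2, which had more peaks.

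**Figure D1:**
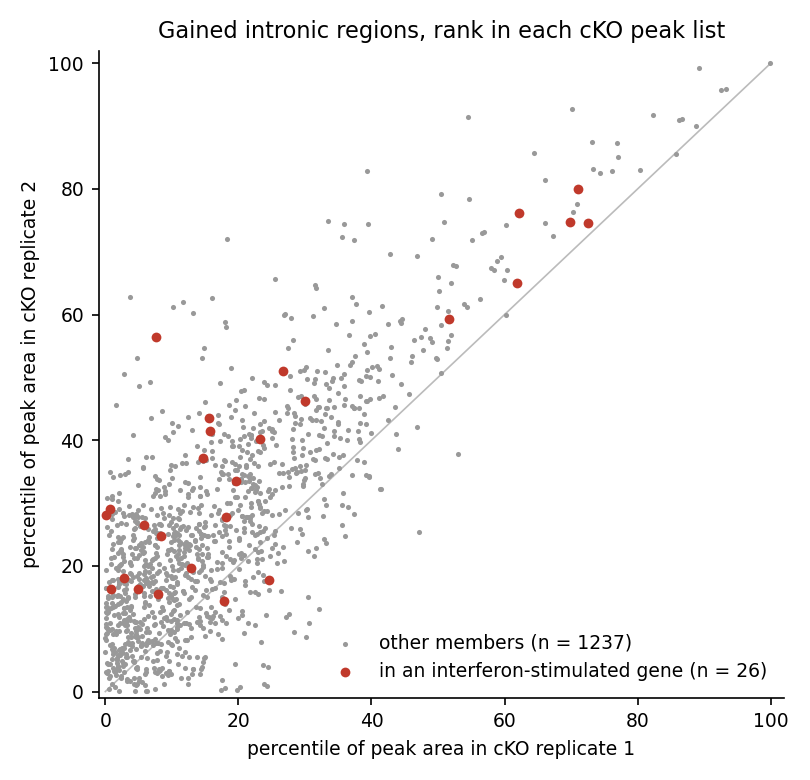
Each of the 1263 gained intronic regions is a point, with its percentile of peak area in cKO replicate 1 on the x axis and in cKO replicate 2 on the y axis; the grey line marks equal percentiles. Red points are the 26 regions in interferon-stimulated genes, and most points lie at low percentiles and above the line.

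The lists differed in length. The WT lists held 55742 and 64939 peaks and the cKO lists 51955 and 60884, with 25191 and 30053 autosomal intronic peaks in WT and 22665 and 27277 in cKO. Peaks of the gained regions were 5.59% and 4.62% of the intronic peaks of the cKO lists. In both genotypes replicate 2 had more peaks. The number of gained intronic regions was 2547 when WT replicate 2 was left out and 3105 when cKO replicate 1 was left out. It was 1320 without WT replicate 1 and 1453 without cKO replicate 2. When every list was shortened to the length of the shortest, 2071 regions were gained, and with only the stronger peaks of each list, those above its median area, there were 633. Read depths are unknown here, so no interval for a single peak can be given.

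The edge of the rule was crossed by small areas. A further 1331 intronic regions had a peak in both cKO lists and in 1 WT list, and 1277 of these WT peaks were in replicate 2 alone. Their median WT percentile was 11.6. Just outside the rule lay regions in Jak1 (chr4:101168235-101168460), Sctr and AC113458.1, whose areas in WT replicate 2 were 200.1, 200.1 and 200.3. Just inside lay regions in Mb21d2 (chr16:28840147-28840325) and Dedd2, with areas of 200.1 and 200.1 in cKO replicate 1, and in Rasgrf2, with 200.1 in cKO replicate 2. In all, 545 gained regions (43.2%) had an area under 250 in at least 1 cKO library.

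The highest-ranked gained regions were wide, and the area they were ranked by is a sum over the width of a peak. The first by mean percentile was a region of 8388 bp (chr2:140653469-140661856) in intron 3 of Macrod2, a gene for an ADP-ribosyl hydrolase, which also lies in the body of Flrt3, a gene nested there. Its areas were 7911 and 12794, at percentiles 99.9 and 99.98 of the cKO lists, and the nearest WT peak was 6518 bp away. The next was a region of 3949 bp in intron 12 of 14 of Psap (chr10:60298398-60302346), the gene for prosaposin, the precursor of activators of lysosomal lipid hydrolases. It was at percentiles 93.3 and 95.9, and a WT peak lay 919 bp away. Only these and a Cacng4 region, at 92.5 and 95.7, were above percentile 90 in both lists. Intron numbers are those at a region's centre, and a wide region can also cover exons. Of gained regions over 1000 bp, 48.1% touched an exon, against 51.3% of intronic regions of that width called in all 4 libraries. The share over all gained regions was 8.08%.

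The rest of the highest-ranked 10 lay in Gm8493, Fancc (also in the annotated body of 2010111I01Rik), Wls, Sorcs2, Apobec1 and, with 2 regions, Osbpl8. Wls encodes the carrier of Wnt proteins for secretion, and Apobec1 a cytidine deaminase that edits mRNA. The Apobec1 region was 3480 bp wide, at percentiles 82.3 and 91.7. The Wls region of 2933 bp was at 86.7 and 91.1. All of the first 10 but the Sorcs2 region, of 665 bp, were at least 1500 bp wide. Over all gained regions, 30 (2.38%) reached 1500 bp, whereas 0 of 2947 lost regions did. The median width was 311 bp for gained, 316 bp for lost and 537 bp for shared intronic regions. Of the first 10, 6 held none of the 12 motifs near the summit.

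To ask which sequences lay under the gained regions, 12 consensus motifs were searched within 100 bp of the summit of each region's top-ranked peak. The motifs were no part of the rule. AP-1 was held by 300 of 1263 gained regions (23.8%, Wilson 95% interval 21.5 to 26.2). The share was 7.87% in lost regions, 17.4% in intronic regions called in all 4 libraries and 13.5% over all autosomal merged regions. Gained minus lost was 15.9 percentage points, with a Newcombe 95% interval of 13.4 to 18.5. Gained minus shared was 6.40 points (4.07 to 8.88), but 3.35 points (1.72 to 5.05) without WT replicate 2 and 11.8 points (8.18 to 15.6) with the stronger peaks. These intervals cover the counting of regions and not the spread between the 2 libraries of a genotype, and regions are not replicates.

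RUNX, the motif of the runt family of haematopoietic factors, was held by 12.7% of gained regions and 6.89% of lost ones. They differed by 5.78 points (3.80 to 7.91). In regions up to 250 bp wide the RUNX difference was 2.67 points (-0.894 to 6.71). At mean percentiles up to 10 it was -0.327 points (-4.16 to 4.06), and 5.53 to 8.96 points in the higher rank classes. CTCF, the insulator protein that anchors chromatin loops, had its motif in 5.23% of gained and 1.46% of lost regions (3.77 points, 2.56 to 5.19), and the difference was 2.005 points (0.822 to 3.41) without WT replicate 1. ARE, the site of NRF2 with small Maf proteins, differed by 2.71 points (0.641 to 4.93), but by 1.25 points (-0.546 to 3.20) without cKO replicate 2 and 0.380 points (-2.63 to 3.64) with the stronger peaks. CRE, the site of CREB and ATF factors, was found in only 6 gained and 3 lost regions (0.373 points, 0.0493 to 0.935), and its interval held 0 under 5 of the alternatives, among them leaving out WT replicate 1 or cKO replicate 2.

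The motifs of PU.1, NF-kB and GAS were found less often in gained than in lost regions. PU.1, the lineage factor of macrophages, had its motif in 9.18% of gained, 13.1% of lost and 13.2% of shared regions. Gained minus lost was -3.88 points (-5.82 to -1.80), and -2.24 points (-5.17 to 0.941) with the stronger peaks. NF-kB was held by 2.53% of gained regions and 7.36% of lost ones (-4.83 points, -6.07 to -3.48). GAS, the site of STAT dimers, differed by -1.81 points (-3.30 to -0.169). It differed by -1.51 points (-2.83 to 0.00847) without WT replicate 1, by -0.927 points (-2.59 to 0.931) without soft-masked summits, and by 2.04 points (-0.302 to 4.68) with the stronger peaks. In the comparison with shared regions, AP-1, RUNX (2.74 points) and CTCF (1.83 points) were higher in gained regions. For CTCF this did not hold within the width classes up to 250 bp and from 250 to 500 bp, given below. AP-1 was held by 22.8% of gained and 8.69% of shared regions up to 250 bp. Above 250 and up to 500 bp the AP-1 shares were 26.8% and 18.2%. Above 500 and up to 1000 bp AP-1 was not higher in gained regions (16.5% and 18.3%), and RUNX was at 10.8% in both. Above 1000 bp the AP-1 shares were 13.5% and 13.3%. Without WT replicate 2, RUNX was 1.40 points (0.151 to 2.75) and CTCF 3.64 points (2.68 to 4.73) higher. PU.1 (-4.05 points), NF-kB (-1.94 points) and the GC-box (-4.62 points) were lower. NF-kB was -0.357 points (-0.983 to 0.545) with motifs within 50 bp, and the GC-box -1.25 points (-2.33 to 0.121) with the 2.5 kb promoter. The interval held 0 for the other 6 motifs.

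ISRE was held by 4.67% of gained regions, 4.07% of lost and 4.41% of shared regions. The difference to lost regions was 0.599 points with an interval of -0.692 to 2.06. C/EBP (-2.12 points, -4.26 to 0.164), the E-box and the GC-box also had intervals that held 0. In total the interval left out 0 for 5 motifs higher and 3 lower in gained than in lost regions. For ISRE the interval left out 0 with the stronger peaks (2.46 points, 0.217 to 5.01), with motifs within 50 bp (1.07 points, 0.187 to 2.16) and without cKO replicate 2 (1.24 points, 0.0857 to 2.58), whereas it was -0.693 points without cKO replicate 1. For C/EBP it left out 0 under 6 alternatives, at values from -4.09 to -1.89 points. At least 1 of the 12 motifs was found near the summit of 837 gained regions (66.3%).

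Gained intronic regions were also compared with gained intergenic regions. AP-1 was at 23.8% and 22.8%, a difference of 0.934 points (-2.55 to 4.38). RUNX was at 12.7% and 13.5%. CTCF was the only motif whose interval left out 0, at 5.23% in introns and 7.57% between genes (-2.35 points, -4.43 to -0.351). With the stronger peaks, this CTCF difference was -0.391 points (-2.67 to 1.72).

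**Figure D2:**
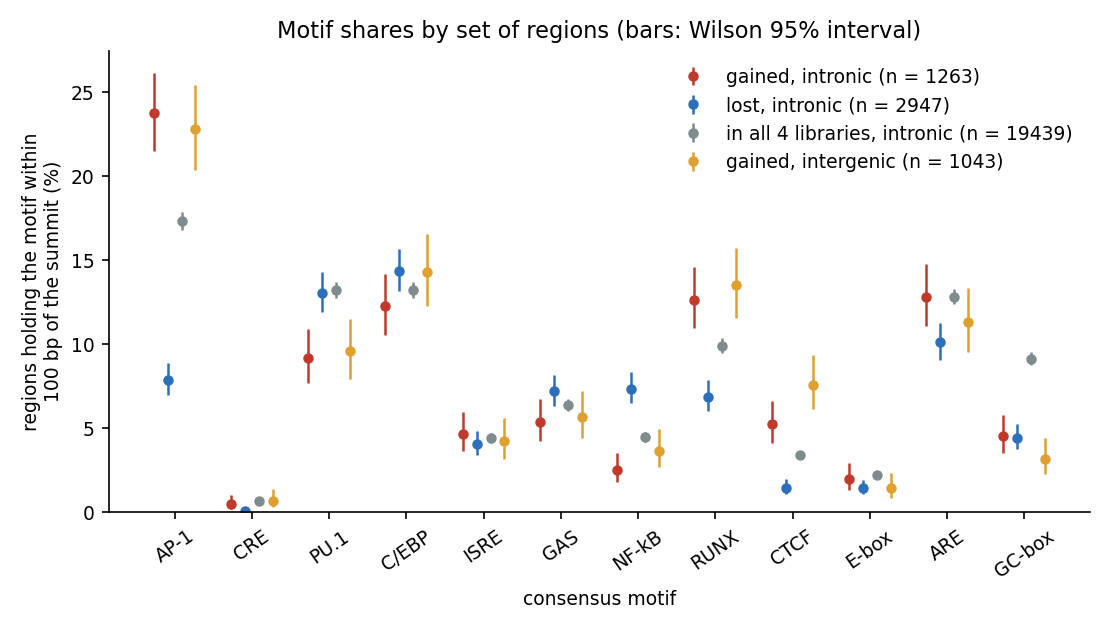
The y axis gives the percentage of regions that held each of 12 motifs (x axis) within 100 bp of the summit, for gained, lost and shared intronic regions and for gained intergenic regions; bars are Wilson 95% intervals. AP-1 stands at 23.8% in gained and 7.87% in lost intronic regions, while PU.1 and NF-kB are lower in gained regions.

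AP-1 sites lay close to the summits. The 300 gained regions held 356 AP-1 matches at a median distance of 29 bp, and 131 of them (36.8%) were within 20 bp. In lost regions the median was 34 bp over 243 matches. CTCF matches had a median distance of 15.0 bp in gained regions. Gained regions with AP-1 held each of the 5 other motifs paired with it less often than those without. PU.1 was in 12 of 300 (4.0%) with AP-1 and in 10.8% of the 963 without. The shares were 7.67% and 13.7% for C/EBP, 1.0% and 6.54% for CTCF, 10% and 13.5% for RUNX, and 3.33% and 5.09% for ISRE. All 5 motifs had the same direction in lost and in shared regions, so this was not particular to gained regions. PU.1, for example, was at 6.03% and 13.7% in lost regions and at 9.04% and 14.1% in shared regions.

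The AP-1 share was then compared within classes of width and rank, chosen after the first shares were known. Among regions up to 250 bp wide, 22.8% of gained and 8.45% of lost regions held AP-1, a difference of 14.4 points (9.45 to 19.6). Above 250 and up to 500 bp the difference was 19.1 points (15.7 to 22.6), and above 500 and up to 1000 bp it was 8.46 points (2.53 to 15.1). Only 2 lost regions were wider. By mean percentile, the difference was 10.3 points (4.99 to 16.1) in the lowest class, up to 10, and 19.7 points (12.8 to 27.3) above 40. In the gained regions themselves the AP-1 share was 20.5% in the lowest and 25.8% in the highest class, with overlapping intervals.

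CTCF followed width. It was held by 12.8% (42 of 329) of gained regions up to 250 bp, by 2.83% of those above 250 and up to 500 bp and by 0 of 52 above 1000 bp (Wilson interval up to 6.88%). By rank it fell from 7.84% in the lowest class to 0.613% (1 of 163) above percentile 40. CTCF matches of gained regions thus lay mostly in narrow, low-ranked regions, whereas AP-1 was found at all ranks. This decline of CTCF was not particular to gained regions. Up to 250 bp, CTCF was held by 18.01% of shared, 18.95% of gained intergenic and 4.05% of lost regions. Above 250 and up to 500 bp these shares were 4.74%, 3.51% and 0.833%. By rank, CTCF was also rarest above percentile 40, at 2.03% of shared, 1.38% of gained intergenic and 0 of 298 lost regions.

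**Figure D3:**
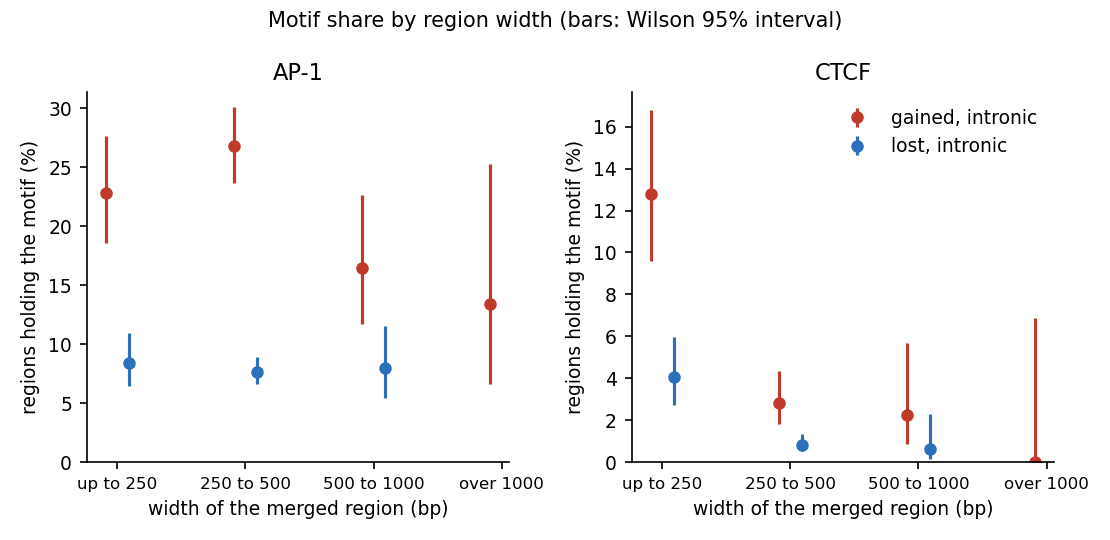
The x axis gives 4 classes of region width and the y axis the percentage of regions with an AP-1 motif (left) or a CTCF motif (right); red points are gained and blue points lost intronic regions, with Wilson 95% intervals. The class over 1000 bp has no blue point because it held 2 lost regions. AP-1 is higher in gained regions in the 3 classes with both sets, and CTCF is highest in gained regions up to 250 bp.

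To set these shares against the spread between libraries, the same motifs were counted in all autosomal intronic peaks of each list. The cKO lists include the peaks of the gained regions (5.59% and 4.62% of their intronic peaks), and the WT lists those of the lost regions. The differences below are therefore not independent of the rule. AP-1 was held by 15.5% and 14.7% of intronic peaks in the WT replicates and by 17.9% and 17.5% in the cKO replicates. Both cKO libraries were above both WT libraries, and the genotypes did not overlap for 10 of the 12 motifs (83.3%). The mean was 15.1 ± 0.571% in WT and 17.7 ± 0.320% in cKO (SD, n = 2 each), a difference of 2.63 points (two-sided exact permutation test, p = 0.333, adjusted over 12 motifs 0.4). With 2 libraries per genotype, 0.333 is the smallest p that the test can give. RUNX was held by 9.21% and 9.02% of WT peaks, below its 10.04% and 9.74% in cKO. NF-kB was held by 4.97% and 4.64% of WT peaks, above its 4.14% and 4.003% in cKO. ISRE overlapped between the genotypes, with 4.29% and 4.21% in the WT lists and 4.40% and 4.11% in the cKO lists.

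Along genes, gained regions lay farther from promoters than shared regions did. Their median distance to the nearest TSS was 13227 bp, with 12178 bp for lost and 10631 bp for shared regions. Within 10 kb of a TSS lay 42.5% of gained, 44.1% of lost and 48.4% of shared regions, so gained minus shared was -5.86 points (-8.65 to -3.03). Gained minus lost was -1.63 points (-4.87 to 1.65). A first intron held 410 of 1219 gained regions (33.6%), 35.8% of lost and 40.3% of shared regions. For 44 gained regions, such as those in Hspa8 and Junb, no transcript of the basic annotation had an intron at the centre.

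Gained regions lay less often in genes whose promoter was called in every library. The host gene's promoter held a peak in all 4 libraries for 64.4% of gained, 78.7% of lost and 78.0% of shared regions. Gained minus lost was -14.3 points (-17.3 to -11.3). The host was protein-coding for 86.5% of gained and 91.4% of lost regions (-4.88 points, -7.09 to -2.81), and a lincRNA for 97 gained regions. The summit base lay in sequence that the assembly masks as repeats in 17.4% of gained, 12.8% of lost and 10.5% of shared regions. Gained minus lost was 4.59 points (2.24 to 7.07), but 1.74 points (-0.280 to 3.78) with lists of equal length. GC content had medians of 46.8%, 47.3% and 48.3%.

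The final 25% of the host gene's length held 23.5% of gained, 19.4% of lost and 18.5% of shared regions. This measure was chosen after the highest-ranked regions had been seen. Gained minus lost was 4.11 points (1.41 to 6.89), and 0.468 points (-3.23 to 4.36) with the stronger peaks. Among regions over 1000 bp, 40.4% (21 of 52, 28.2 to 53.9) of gained and 11.8% (261 of 2203, 10.6 to 13.3) of shared regions were in this final stretch. Their median position was 58.0% of the gene for gained and 16.8% for shared regions. These regions are not independent, since 7 of the 21 lay in Rasgef1b and 3 in Atp1b3. Position was taken along the whole gene body, and the 7 in Rasgef1b lay within 24205 bp of another annotated TSS of that gene. Without these genes 11 of 41 gained regions (26.8%, 15.7 to 41.9) were in the final stretch. Examples are the Psap region, at 91.1% of the gene, and the Wls region, at 99.3%.

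Most gained regions stood alone. With a gap of at most 10 kb, 1090 of them had no gained neighbour, 49 pairs held 98, and 17 runs of 3 or more held 75 (5.94%). The longest run lay in Osbpl8, which encodes a lipid transfer protein of the endoplasmic reticulum. It held 16 gained regions over 76119 bp. The gene held 18 gained regions in all, of 37 intronic regions, with 8 called in all 4 libraries and 0 lost. Their percentiles ranged from 4.70 to 85.8 in cKO replicate 1 and from 2.84 to 87.3 in replicate 2. All 18 were at least 607 bp wide, the widest at 3544 bp (chr10:111183218-111186761).

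Rasgef1b, the gene of a Ras guanine nucleotide exchange factor known to be induced by Toll-like receptor signals, held 12 gained regions of 49. A run of 9 covered 25006 bp at the 3′ end of the whole gene body of 511640 bp, from intron 6 to intron 16 of 16. Its widest region had 4475 bp. The TSS nearest to each of the 9 was another one of Rasgef1b, 2129 to 24205 bp from the region's centre. A shorter annotated transcript of the gene thus starts inside the run. Its TSS lies within the widest region, which therefore also reaches into that promoter. The percentiles within that run were between 10.9 and 82.8. Atp1b3, a subunit of the sodium-potassium pump, held 5 gained regions of 14, all at least 870 bp wide. Msh3, a mismatch repair gene, held 4 of 11, all in intron 8. Runs of 3 were found in Mx1, Rsad2, Apobec1, Dgki, Iqcm and other genes.

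The regions in runs differed from the rest in sequence and width. AP-1 was held by 8 of 75 (10.7%, 5.50 to 19.7) in runs and by 292 of 1188 (24.6%, 22.2 to 27.1) alone or in pairs. The median width was 744 bp in runs and 304 bp elsewhere. Members of a run share a gene and are not independent of each other. Of the 15 genes with 4 or more gained regions, Gm20388 is an annotated read-through model of 4434882 bp with 196 intronic regions, of which 6 were gained and 28 lost.

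**Figure D4:**
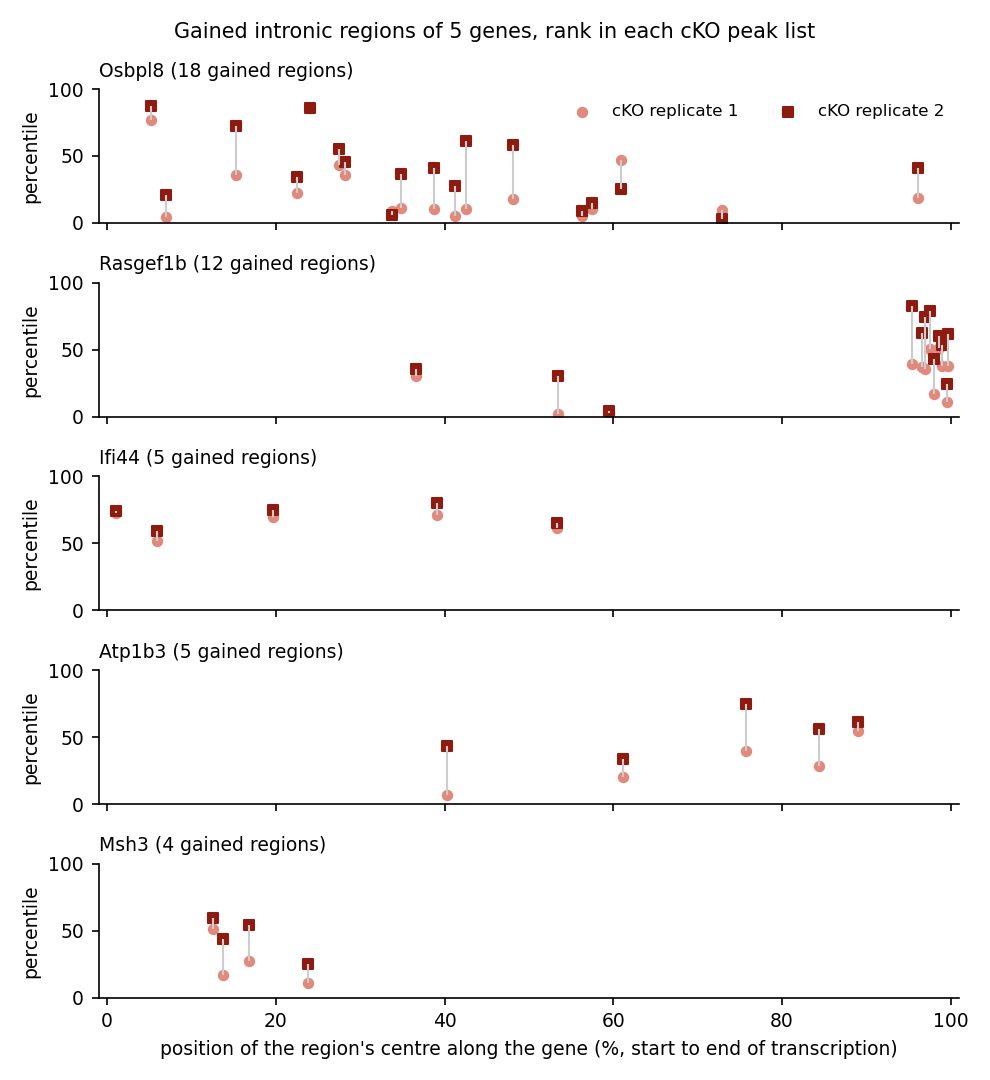
Each panel is a gene with several gained intronic regions; the x axis gives the position of a region along the gene from start to end of transcription (%), and the y axis its percentile of peak area, with circles for cKO replicate 1 and squares for cKO replicate 2. The Osbpl8 regions spread over most of the gene, and all Ifi44 points are above percentile 50. Of the 12 Rasgef1b regions, 9 lie at the end of the whole gene body, where a shorter annotated transcript also starts.

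Genes were then grouped by lists. Interferon-stimulated genes (ISGs) are induced through the interferon receptor and encode antiviral and sensing proteins. Of 69 ISGs with any intronic region, 16 (23.2%) held a gained and 6 (8.70%) a lost one. Over all 8698 protein-coding genes with an intronic region, 10.3% held a gained and 22.7% a lost one. By regions, 26 of 154 intronic regions in ISGs (16.9%) were gained and 6 (3.90%) lost, where all protein-coding genes had 3.67% gained and 8.98% lost. The list was chosen with earlier results of these data known, so these counts are a description.

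Ifi44, an antiviral ISG on chromosome 3, had the strongest of them. All 5 of its intronic regions were gained, with 0 called in WT and the nearest region called in all 4 libraries at least 164385 bp away. The area at chr3:151742236-151742798, in intron 5 of 7, was 1092 in cKO replicate 1 and 1550 in replicate 2, at percentiles 71.1 and 79.9. The region in intron 1 (chr3:151749387-151750122) was at percentiles 72.5 and 74.5, and its centre lay 205 bp from the TSS. The other 3 were in introns 2, 3 and 5, and the lowest of the 5 had percentiles of 51.6 and 59.3. That one, in intron 2, held the ISRE printed above. A peak was called in the promoter of Ifi44 in 2 libraries. This is not a separate observation, since the intron 1 region crosses the TSS at position 151749960 and reaches into that promoter.

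Mx1, a GTPase that blocks viral ribonucleoproteins, had 3 intronic regions, all gained. The widest covered 3876 bp (chr16:97451566-97455441) at percentiles 62.3 and 76.2. Another was at 0.693 in cKO replicate 1 and 29.0 in replicate 2, so the replicates ranked it differently. Rsad2, which encodes viperin, had 3 gained regions, at percentiles between 0.0770 and 15.8 in cKO replicate 1 and between 15.5 and 41.4 in replicate 2. Ly6e was at 26.8 and 51.0, and Usp18, a negative regulator of interferon signals, at 30.01 and 46.2. Trim30a and Zbp1, a sensor of nucleic acids in the Z form, had 2 regions each, and Rtp4 had 1. Bst2, Ddx58 (RIG-I), Ifi44l, Irgm2, Nt5c3, Oas1e, Sp100 and Trim25 held 1 region each, with mean percentiles up to 25.9.

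Over the 26 regions, the percentiles had medians of 16.8 and 35.3 in the cKO lists. In 6 of them (23.1%) both were above 50, against 4.59% of all gained regions. These 6 were the 5 Ifi44 regions and the widest Mx1 region, so Ifi44 alone gave most of this share. ISRE was found near the summit of 2 of the 26 (7.69%) and AP-1 of 4 (15.4%). Within 10 kb of a TSS lay 22 of the 26, and 3 of the 26 overlapped a promoter in part. The promoter held a peak in all 4 libraries for 12 of the 16 genes. For 8 genes, including Ifi44, Mx1, Zbp1 and Bst2, every intronic region was gained, but 5 of the 8 had only the 1 region that put them among these genes. With promoters taken as 2.5 kb on both sides of a TSS, the number of ISGs with a gained intronic region was 9. It was 9 with the stronger peaks of each list, and 29 when cKO replicate 1 was left out.

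**Figure D5:**
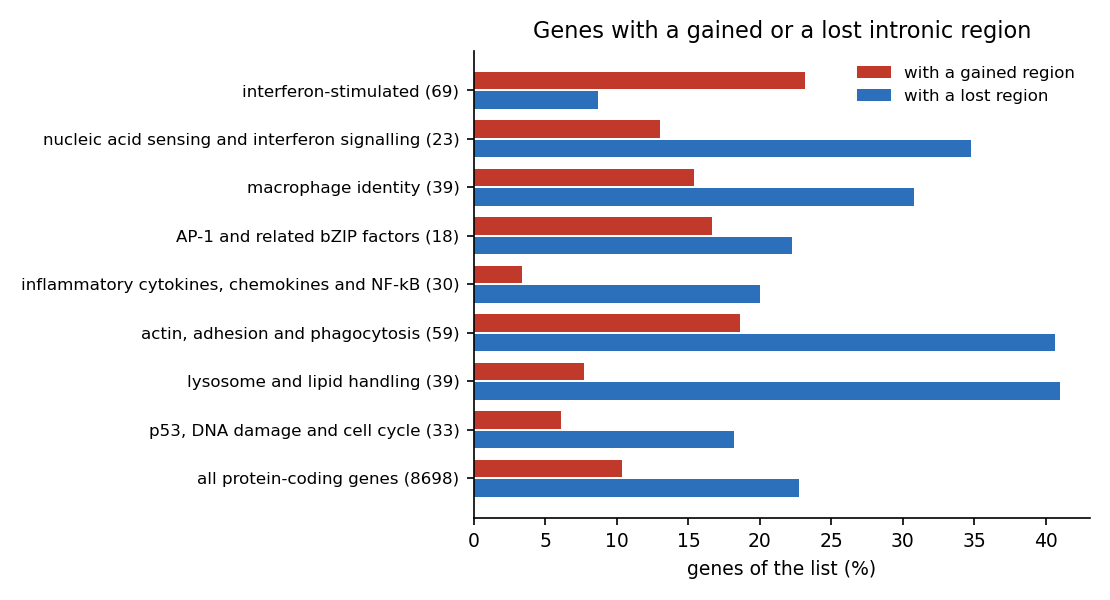
Bars give the percentage of genes of each list with at least 1 gained (red) or lost (blue) intronic region; the number of genes with any intronic region is in parentheses. In the interferon-stimulated list 23.2% of genes had a gained and 8.70% a lost region. In every other list shown the lost share was the larger, as over all protein-coding genes (10.3% and 22.7%).

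In the other 7 lists shown, fewer genes held a gained than a lost region, as over all protein-coding genes (10.3% and 22.7%). The share of genes with a gained region ranged from 3.33% to 18.6% over these lists. Of their intronic regions 0.935% to 3.55% were gained, against 3.67% over all protein-coding genes. Genes of nucleic acid sensing and interferon signalling had 3 with gained and 8 with lost regions, of 23. The 3 were Aim2, a DNA sensor that starts an inflammasome, at percentiles 31.9 and 34.8, Jak1, the kinase of interferon receptors, at 4.36 and 21.3, and Traf6 at 4.03 and 5.68. Of 39 macrophage identity genes, 6 held a gained and 12 a lost region. Cd84, a SLAM family receptor, was at 46.0 and 52.5 and Mrc1, the mannose receptor, at 29.7 and 33.0. Both regions in Adgre1, the gene of F4/80, were below percentile 10 in both lists.

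Among 18 genes of AP-1 and related bZIP factors, 3 held a gained and 4 a lost region. Atf3, a stress-induced bZIP factor, was at 23.3 and 25.3 (chr1:191172522-191172850). Mafk, a small Maf partner of NRF2, was at 20.6 and 43.2, and Junb, an AP-1 subunit, at 18.9 and 18.1. Inflammatory cytokine, chemokine and NF-kB genes had 1 of 30 with a gained region, Tgfbr1, and 6 with a lost one. Among genes of actin, adhesion and phagocytosis, 11 of 59 held gained and 24 lost regions. Arhgap24 had the highest of these, at 44.6 and 59.3. Lcp1, the actin bundler L-plastin, was at 37.0 and 59.0, and Myo10 had 3 and Dock10 4 regions.

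Lysosome and lipid genes held gained regions in 3 of 39 and lost regions in 16. The 3 were Psap, Gpnmb (31.6 and 64.7), a glycoprotein of lysosomes, and Ctsz (32.8 and 61.1), the protease cathepsin Z. All 3 of these regions were at least 692 bp wide. In the p53, DNA damage and cell cycle list, 2 of 33 genes held a gained region, Cdkn1a, the cell cycle inhibitor p21, at 26.8 and 34.9, and Cdk6 at 3.26 and 11.6. Lost regions were in 6. Of the markers of other cell types only 14 genes had any intronic region, too few to read the 0 with a gained one against 10.2% over all genes.

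Gained regions lay in 1090 of 10720 genes with an intronic region (10.2%), and 923 of these genes held 1. Of 898 protein-coding genes with a gained region, 207 (23.1%) also held a lost one. Long genes held more of them. Of protein-coding genes over 200 kb, 31.8% held a gained region, against 4.91% of those up to 20 kb. Counted per intronic region, however, 4.65% and 3.997% were gained in these classes, and 2.84% in genes of 50 to 100 kb. By chromosome, the gained share of intronic regions ranged from 1.66% (1.11 to 2.48) on chromosome 14 to 5.00% (4.13 to 6.05) on chromosome 10. On chromosome 10 it was 4.17% without Osbpl8. On chromosome X a further 16 intronic regions were gained.

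The labels were checked against the peaks. In every library, 9 of 10 promoters of macrophage marker genes held a peak, with Spi1 as the exception in this window. Of neutrophil markers 2 to 3 of 10 held one, of T and NK cell markers 1 of 8, of B cell markers 1 to 2 of 6, of dendritic cell markers 3 of 6 and of stromal markers 0 of 7. Among defining markers of other cells, the promoters of Mpo, Elane and Cd3e had no peak in any library, while those of S100a8, Ms4a1, Flt3 and Klrb1c had one in all 4. Their part in the results was not tested. The promoters of H3f3a and H3f3b held a peak in every library. In the body of H3f3a, 1 region was lost and 1 was called in all 4, and in H3f3b both regions were called in all 4. These peaks do not tell how completely the floxed exons were removed.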

How the data were processed

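The authors aligned paired ATAC-seq reads to mm10 with Bowtie2 (version 2.5.1, per the labels) and called peaks with Genrich at default settings, 1 library at a time. Read filters, duplicate removal and any shift for the Tn5 insertion are not given in the sources used here. The deposited peak signal is the area under the significance curve of a peak, which depends on depth and was used only to rank peaks within a list. The deposited −log10 p-value at the summit entered no comparison.

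Peaks were merged in Python (pandas 2.3.3, numpy 2.4.6), and the merged regions were checked against bedtools 2.31.1. Classes came from the GENCODE M21 basic annotation (53843 genes) and sequences from the RefSeq assembly of mm10. Coordinates are 1-based. Shares have Wilson and differences of shares Newcombe 95% intervals. Shares per library were tested by exact permutation (two-sided, 6 assignments), with Benjamini-Hochberg adjustment over 12 motifs. Scripts were tested on simulated data.

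Named regions were the top 10 by mean percentile, genes with 4 or more gained regions, up to 8 genes of each list by rank (beside these, other members of the interferon list and genes with shorter runs are named), the top region of each motif (not on chromosome 18) and 3 regions on each side of the rule. The members, lists and motifs were chosen with earlier results of these data known. Runs of 3 and the position along the gene were chosen after values were seen.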

Additional observations from a re-analysis of the deposited data

How the results depend on the processing

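With all 4 libraries, the AP-1 difference between gained and lost regions ranged from 13.1 to 22.4 points, and from 12.8 to 17.0 with single libraries left out. The number of gained regions ranged from 1320 to 3105 with single libraries left out, and was 633 with peaks above the median area and 2071 with lists of equal length. ISGs with a gained region numbered 9 with peaks above the median area, 9 with the wider promoter, and 16 to 29 with single libraries left out. Motifs separating gained intronic from intergenic regions numbered 1, but 0 with peaks above the median area, 2 with lists of equal length, 2 with calls by cover of at least 50%, 2 with protein-coding genes only, and 1 to 2 with single libraries left out. Of 6 position and sequence shares, 3 separated gained from lost regions, 1 with peaks above the median area and 3 to 5 with single libraries left out.

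With peaks above the median area, GAS (2.04 points) and the GC-box (-2.34 points) changed direction against lost regions. Against shared regions, ISRE ranged from -0.780 points without cKO replicate 1 to 0.588 without cKO replicate 2. Over all intronic peaks, cKO minus WT changed sign for the E-box (-0.0602 points with peaks above the median area, -0.0407 with lists of equal length, -0.0234 without WT replicate 2 to 0.0929 without WT replicate 1), the GC-box (-0.0182 with lists of equal length) and ISRE (-0.143 without cKO replicate 1 and -0.0366 without WT replicate 2, up to 0.155 without cKO replicate 2). The causes were not tested. With the replicate numbers as a replicate block, the AP-1 difference over all intronic peaks was 2.63 points (exact sign-flip test, p = 0.5, the smallest possible). The labels say nothing of a shared culture or day, and with 2 pairs the numbers were not taken as pairs. Depth was unknown, which limits what a missing peak shows.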
